A study of Rattus norvegicus with 12 samples.

Results

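The insulin-like growth factor (IGF) binding proteins were followed in rat induced pluripotent stem (iPS) cells, embryonic stem (ES) cells and embryonic fibroblasts (EF). The family comprised 8 genes, Igfbp1 to Igfbp7 and Igfbpl1, out of 14218 genes on the array. A probe set was taken for a member when the platform's gene table gave it that symbol alone. This gave 14 of the 20832 probe sets with 1 gene symbol, and the brightest one by its mean of 12 arrays stood for the gene. The members were chosen by their measured log2 levels in the 6 lines, Igfbpl1 because it was high both in iPS lines and in lines with an ES-like profile. All levels and differences of members between lines are therefore a description, given with no p-value of their own. Counts of members that met the call rule stand beside the share of all genes that met it, and nothing is read from them.

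IGF1 and IGF2 are secreted growth factors that signal through the IGF1 receptor and, in part, through the insulin receptor. The binding proteins are secreted, hold the IGFs with high affinity, and either keep them from the receptor or carry them to it, until proteases cleave the binding protein. IGFBP7 and the protein of Igfbpl1 carry the family's N-terminal domain but not the C-terminal domain of the classical members. Fibroblasts are known to secrete several of these proteins, and Igfbpl1 is known from the developing mouse forebrain.

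RNA was measured on 12 single-colour arrays, 2 for each of 6 lines or cultures. The iPS arrays held the lines A1 and A2, of the FHH rat strain. The ES arrays held DAC2 and DAC8, for which no strain is labelled, and the EF arrays held the FHH fibroblast cultures REF1 and REF2, prepared from e14.5 embryos. By the labels, Oct4, Sox2, Nanog and SSEA-1 were positive in all iPS and ES lines, DAC8 included. The iPS and ES cells were kept in 2i medium and sampled 5 days after passage, the fibroblasts in MEF medium and sampled 6 days after passage. iPS lines grew on mouse feeder fibroblasts, and the labels say neither whether these were removed nor whether both arrays of a line had cultures of their own. The spread behind a p-value between lines may therefore be a technical one. In such bulk RNA, fewer cells of a type and less RNA per cell cannot be told apart.

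The arrays labelled DAC8 and REF2 went against their labels. Of 10 fibroblast markers, 9 had a line mean of at least 5 log2 units in DAC8 and 9 in REF1, against 2 in A1, 2 in A2, 2 in DAC2 and 1 in REF2. The summed log2 level of these 10 markers was 100.5 in DAC8 and 105.2 in REF1, and lay between 39.5 and 43.1 in the 4 other lines. All 7 measured ES markers and all 6 epithelial markers reached 5 in DAC2 and in REF2, whereas 3 of 7 and 1 of 6 did in DAC8 and in REF1. The iPS lines also lacked part of the ES markers, with 3 of 7 at 5 in A1 and 4 of 7 in A2. These were Sox2, Sall4 and Klf4 in A1, with Klf5 added in A2, but Klf2, Klf4 and Klf5 in DAC8 and REF1. By its brightest probe set Sox2 had 9.43 in A1 and 4.79 in DAC8, and another of its sets had 5.64 in DAC8. All 9 neural markers reached 5 in A1 and A2, with 0 of 6 epithelial markers, and 6 of 9 neural markers did so in DAC8 and in REF1, 3 in DAC2 and 4 in REF2. As a measure of RNA quality, the log2 signal of actin's 3' probe set exceeded that of its 5' set by 0.45 to 0.52 in DAC8 and 0.42 to 0.48 in REF1, and 0.84 to 1.05 on the other arrays. The part of cell makeup and of RNA quality in the results was not tested. No array was moved to another group, and each comparison of cell types is given with and without these arrays. Levels under 5 log2 units were not shown to lie above background, so where 1 side lies under 5 the true difference may be larger.

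For 3 members the line means spanned more than 6 log2 units, and the 250 bases before their annotated gene starts are shown because of this span. The sequences are from RefSeq, build GRCr8, and run 5′ to 3′ on the gene's strand. Capitals mark matches on either strand to any of 5 motifs.
Igfbpl1, chr5:64887462-64887711, minus strand: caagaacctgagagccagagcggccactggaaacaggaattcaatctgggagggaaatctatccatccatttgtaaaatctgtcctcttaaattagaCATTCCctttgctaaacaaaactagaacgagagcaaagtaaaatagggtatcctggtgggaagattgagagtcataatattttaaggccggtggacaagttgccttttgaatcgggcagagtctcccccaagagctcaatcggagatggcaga
Igfbp3, chr14:86277945-86278194, minus strand: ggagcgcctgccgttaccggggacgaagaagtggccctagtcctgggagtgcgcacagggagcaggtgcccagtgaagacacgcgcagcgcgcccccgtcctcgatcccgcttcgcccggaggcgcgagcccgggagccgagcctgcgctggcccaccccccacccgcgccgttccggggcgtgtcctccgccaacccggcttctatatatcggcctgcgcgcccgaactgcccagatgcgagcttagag
Igfbp7, chr14:31091486-31091735, plus strand: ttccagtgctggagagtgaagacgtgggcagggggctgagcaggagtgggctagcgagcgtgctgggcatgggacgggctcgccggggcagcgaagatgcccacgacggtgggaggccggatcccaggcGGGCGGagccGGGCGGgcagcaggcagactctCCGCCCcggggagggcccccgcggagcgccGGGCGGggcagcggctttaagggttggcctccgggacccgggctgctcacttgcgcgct
The TATA box, TATAAA, occurred in 12.9% of the 33469 RefSeq windows of the same length. The GC box, GGGCGG, occurred in 30.5%, the AP-1 site, TGANTCA, in 6.34%, the core letters of a TEAD site, GGAATG, in 12.1% and a Sox-type site, AACAAT, in 10.3%. The Igfbp7 window held 4 matches to the GC box, of which 1 was on the reverse strand, and these matches did not overlap. The Igfbpl1 window held 1 reverse-strand match to the TEAD letters, between 148 and 153 bases before the start. The Igfbp3 window held no match. The Igfbpl1 window was 44.4% G or C with 5 CpG pairs, against 71.6% with 31 pairs for Igfbp3 and 74.4% with 26 pairs for Igfbp7, where the median over all windows was 51.2% with 5 pairs. Windows were found for 8 of 8 members. In this assembly Igfbp1 and Igfbp3 are neighbours on chromosome 14, and Igfbp2 and Igfbp5 on chromosome 9, each pair pointing towards each other.

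Igfbpl1 had the widest span of line means in the family, 9.66 log2 units. Its log2 signal was 11.87 and 11.74 on the arrays of A1 and 11.90 and 11.82 on those of A2. It was 9.81 and 9.67 in DAC2 and 10.31 and 10.35 in REF2. It was 2.19 and 2.69 in DAC8 and 2.30 and 2.09 in REF1. The 4 iPS arrays were thus the highest, the arrays of REF2 and DAC2 came next with no overlap between any of these groups, and DAC8 and REF1 were under 5 and overlapped each other. The iPS mean stood above that of DAC2 by 2.09 log2 units, or 4.26-fold, and above that of REF2 by 2.83-fold. The difference was 9.64 log2 units against REF1 and 9.39 against DAC8, with both of these lines under 5. One probe set measured the gene.

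**Figure D1:**
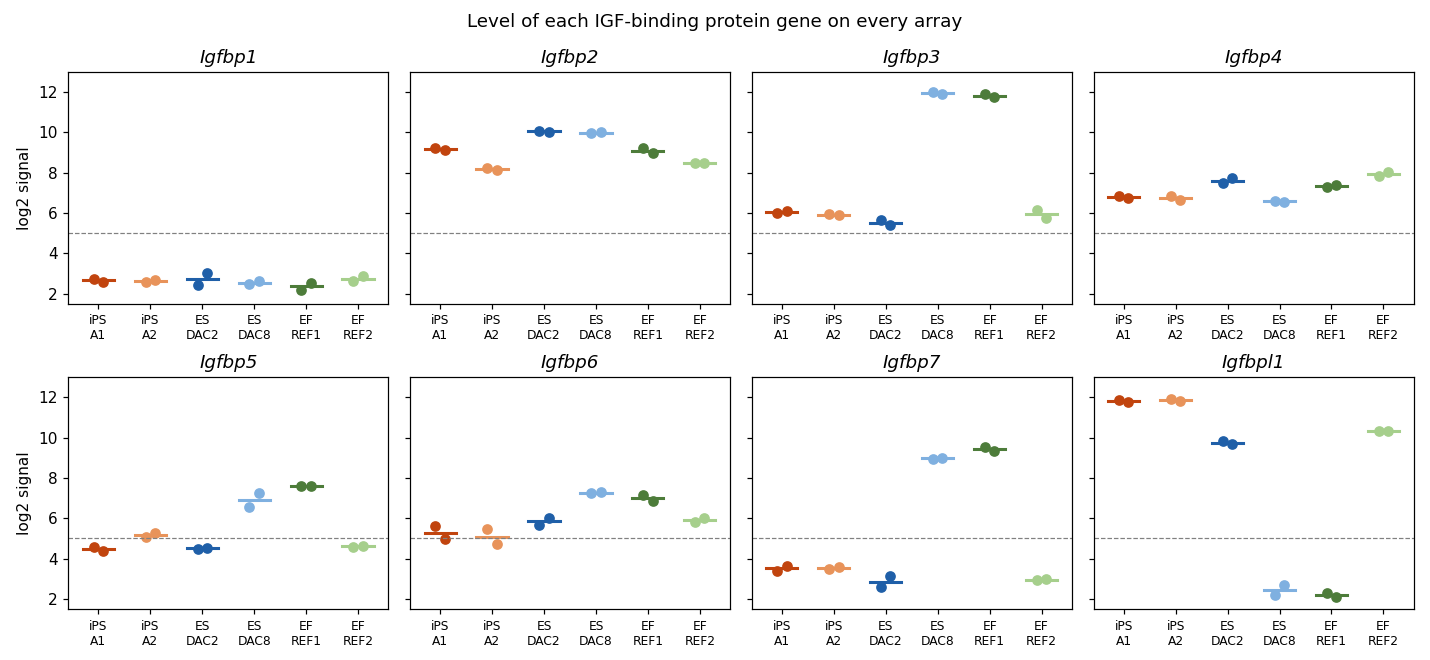
Log2 signal of the 8 IGF-binding protein genes on each of the 12 arrays. Points are arrays, bars are means of the 2 arrays of a line, and the dashed line marks 5 log2 units. Igfbp3 and Igfbp7 are high in DAC8 and REF1, Igfbpl1 is high in the other 4 lines, and Igfbp1 lies under 5 throughout.

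Igfbp3 encodes the main IGF carrier of blood plasma. Its log2 signal was 11.99 and 11.92 on the arrays of DAC8 and 11.90 and 11.74 on those of REF1. In the iPS lines it was 6.01 and 6.11 (A1) and 5.94 and 5.91 (A2), in DAC2 it was 5.65 and 5.39, and in REF2 it was 6.13 and 5.77. DAC8 and REF1 stood apart from the 4 other lines, among which A1, REF2 and A2 overlapped. All arrays of DAC8 and REF1 lay above all others for 2373 of the 11001 genes tested, or 21.6%, among them Igfbp3, Igfbp5, Igfbp6 and Igfbp7, and below all others for 29.3%, among them Igfbpl1. Means were 5.52 ± 0.19 in DAC2 and 11.96 ± 0.05 in DAC8 (SD, n = 2 each), a difference of -6.43 log2 units. Between the fibroblast cultures REF1 had 11.82 ± 0.11 and REF2 5.95 ± 0.26, a difference of 5.87 in the other direction.

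Igfbp7, a secreted protein that binds IGFs weakly and is known from vessel walls and senescent cells, followed a like course. Its log2 signal was 8.96 and 8.98 in DAC8 and 9.56 and 9.34 in REF1. All 8 arrays of the other 4 lines lay under 5, from 2.59 in DAC2 to 3.65 in A1. The difference was -6.11 log2 units for DAC2 minus DAC8 and 6.51 for REF1 minus REF2. After each gene was centred on its mean of the 6 lines, the line means of Igfbp3 and Igfbp7 differed by a root mean square of 0.26 log2 units, the smallest of the 10 pairs among the 5 members that spanned 2 log2 units or more. The corresponding values were 1.67 for Igfbp3 with Igfbp5 and 6.93 for Igfbp3 with Igfbpl1. These values were not scaled, so a difference in span adds to them, with spans of 6.43 for Igfbp3 and 3.12 for Igfbp5.

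Igfbp5 and Igfbp6 were also highest in DAC8 and REF1, over a smaller range. Igfbp5, a binding protein that attaches to extracellular matrix, had a log2 signal of 6.54 and 7.25 in DAC8 and 7.62 and 7.58 in REF1. It was 4.58 and 4.37 in A1, 5.06 and 5.29 in A2, 4.49 and 4.53 in DAC2 and 4.57 and 4.64 in REF2. Igfbp6, which prefers IGF2 over IGF1, had 7.26 and 7.30 in DAC8 and 7.16 and 6.84 in REF1. It was 5.66 and 6.03 in DAC2 and 5.81 and 5.99 in REF2. The iPS arrays were lowest, with 5.60 and 4.97 in A1 and 5.46 and 4.72 in A2, and the spread of 0.44 and 0.52 (SD, n = 2) in these lines was the widest for this gene.

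The members with several probe sets were compared across them. Both probe sets of Igfbp3 placed DAC8 and REF1 on top, and the dimmer one had line means of 10.20 and 10.27 there and 4.09 to 4.88 in the other lines. Both probe sets of Igfbp6 did the same, with 6.26 in DAC8 and 6.68 in REF1 and 3.44 to 4.55 elsewhere for the dimmer one. The brighter probe set of Igfbp6 has the suffix _s, which Affymetrix gives to sets that match several transcripts. The 5 probe sets of Igfbp5 disagreed. A set with line means of 6.15 in DAC8 and 6.94 in REF1 also reached 5.64 in DAC2 and 5.66 in REF2, against 3.84 in A1 and 3.91 in A2, so the iPS lines stood apart on it but not on the set that stood for the gene. The 3 other sets stayed under 5 in all line means and spanned at most 0.52 log2 units. With the mean of all 5 sets, the Igfbp5 difference was -0.56 for DAC2 minus DAC8 and 0.87 for REF1 minus REF2, both under 2-fold. It was then -0.45 for iPS minus DAC2 and -0.45 for iPS minus REF2, where the set that stood for the gene gave 0.32 and 0.22.

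**Figure D2:**
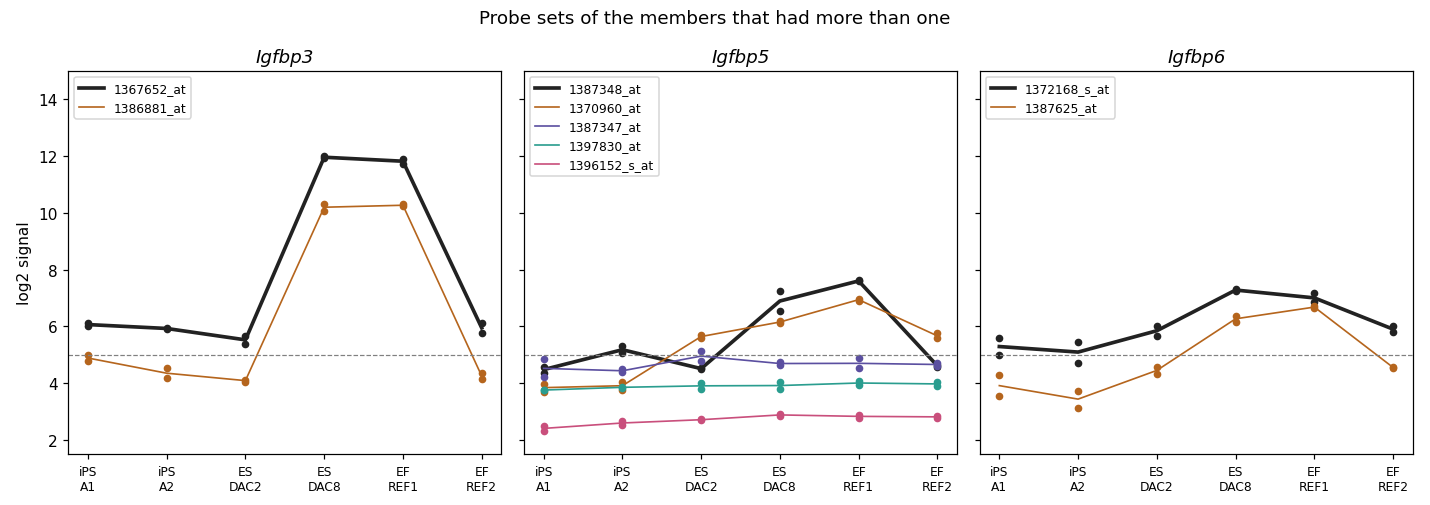
Log2 signal by line for each probe set of Igfbp3, Igfbp5 and Igfbp6. Points are arrays, lines join the means of the 2 arrays of a line, the thick line is the probe set that stood for the gene, and the dashed line marks 5. The sets of Igfbp3 and Igfbp6 run together, whereas those of Igfbp5 differ in DAC2 and REF2 and 3 of them are flat under 5.

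Igfbp2, a binding protein of fetal tissues, did not divide the lines the way Igfbp3 and Igfbpl1 did. Its log2 signal was 9.22 and 9.13 in A1, 8.23 and 8.15 in A2, 10.09 and 10.02 in DAC2, 9.95 and 10.03 in DAC8, 9.20 and 8.98 in REF1 and 8.49 and 8.46 in REF2. The 4 arrays of the ES label were the highest and overlapped each other, A1 overlapped REF1, and A2 was the lowest. Line means differed by 0.06 log2 units for DAC2 minus DAC8, by 1.58 for DAC2 minus REF2 and by 0.90 for DAC8 minus REF1. All 4 ES arrays lay above the 8 others for 67 of the 11001 genes tested, or 0.609%, and Igfbp2 was the single member among these. The 4 iPS arrays lay above all others for 2219 of them, or 20.2%, Igfbpl1 included, and below all others for 1598 genes, Igfbp6 included. Between the iPS lines Igfbp2 had 9.17 ± 0.06 in A1 and 8.19 ± 0.05 in A2 (SD, n = 2 each), a difference of 0.98 log2 units or 1.97-fold.

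Igfbp4, a mostly inhibitory binding protein that the protease PAPPA cleaves, varied least among the members above 5, with a span of 1.36 log2 units. It had a log2 signal of 7.48 and 7.72 in DAC2 and 7.84 and 8.03 in REF2, 7.29 and 7.38 in REF1, and 6.60 and 6.55 in DAC8. The iPS arrays had 6.84 and 6.73 (A1) and 6.83 and 6.63 (A2), and overlapped each other. Igfbp1, known from liver, where insulin represses it, lay under 5 on all 12 arrays, between 2.20 and 3.04, and no order is read among its lines.

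By the threshold of 5 log2 units, 5 members were reached in A1, 6 in A2, 5 in DAC2, 6 in DAC8, 6 in REF1 and 5 in REF2. Of all 14218 genes, 66.7% to 67.9% reached it in each line. By the probe sets that stood for the genes, Igfbp2, Igfbp3, Igfbp4 and Igfbp6 reached it in all 6 lines. Igfbpl1 did so in A1, A2, DAC2 and REF2, Igfbp7 in DAC8 and REF1, and Igfbp5 in A2, DAC8 and REF1. These lists depend on the probe set. The dimmer sets of Igfbp3 and Igfbp6 reached 5 only in DAC8 and REF1. A dimmer set of Igfbp5 reached 5 in DAC2, DAC8, REF1 and REF2, but not in A2.

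The lines of one label were compared next, to set each member's difference within ES beside that within EF. Calls were made in limma at a Benjamini-Hochberg adjusted p under 0.05 with at least a 2-fold difference. Of the 7 members that passed the filter on low levels, 2 were called higher and 4 lower for DAC2 minus DAC8, where 40.2% of all 11001 tested genes were called. For REF1 minus REF2, 4 were called higher and 1 lower, with 40.3% of all genes called. Igfbp2 was the member not called in DAC2 minus DAC8, and Igfbp2 and Igfbp4 were those not called in REF1 minus REF2. The choice of members used these levels, so nothing is read from these counts. Across the tested genes the 2 differences had a Pearson correlation of -0.953, from arrays with no sample in common, and genes are not independent replicates. Igfbp3, Igfbp5, Igfbp6 and Igfbp7 were lower in DAC2 than in DAC8 and higher in REF1 than in REF2, and Igfbpl1 and Igfbp4 were the reverse. Igfbp2 alone among the members had the same sign in both, 0.06 and 0.62 log2 units.

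**Figure D3:**
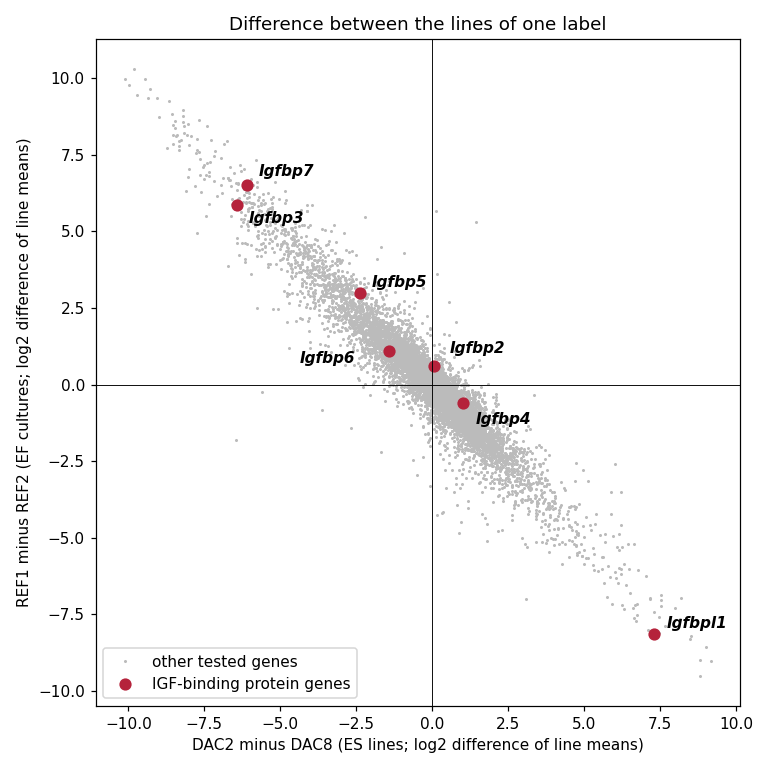
Log2 difference of line means for REF1 minus REF2 (vertical axis) against that for DAC2 minus DAC8 (horizontal axis). Grey points are the other tested genes and red points the 7 members that passed the filter. The genes fall along a descending diagonal, with Igfbp7 and Igfbp3 at the upper left, Igfbpl1 at the lower right, and Igfbp2 just right of the vertical zero line.

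Lines of different labels whose markers were alike were compared as well. For DAC2 minus REF2, 1 of 7 members was called, where 4% of all genes were. This was Igfbp2 at 1.58 log2 units, and Igfbpl1 stood at -0.59, Igfbp3 at -0.42 and Igfbp4 at -0.33. For DAC8 minus REF1, no member was called by limma, where 1.53% of all genes were called, 0.727% higher and 0.8% lower. Here Igfbp2 stood at 0.90, Igfbp4 at -0.76, Igfbp5 at -0.71 and Igfbp7 at -0.48 log2 units. For A1 minus A2 no member was called either, where 0.218% of all genes were called, 0.136% higher and 0.0818% lower. Igfbp2 stood at 0.98 and Igfbp5 at -0.70, and the 5 others lay between -0.05 and 0.20.

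The iPS lines were next compared by label, first with the ES lines. With each line's 2 arrays averaged before the fit, no member was called for iPS minus ES by limma, and 2.26% of all genes were called, 1.83% higher and 0.436% lower. Igfbpl1 differed by 5.74 log2 units, Igfbp3 by -2.75, Igfbp7 by -2.39, Igfbp6 by -1.37, Igfbp2 by -1.34, Igfbp5 by -0.88 and Igfbp4 by -0.33. The ES mean averaged DAC2 and DAC8, which stood 7.30 log2 units apart for Igfbpl1. With DAC2 as the single ES line, the arrays of 4 lines were fitted with the line as the factor, so that the spread was that between arrays of a line, not that between lines. Without the arrays labelled DAC8 and REF2, 1 member was called higher and 1 lower, with 30% of all genes called, 16.7% higher and 13.3% lower. The difference was then 2.09 for Igfbpl1, 0.47 for Igfbp3, 0.66 for Igfbp7, -0.65 for Igfbp6, -1.37 for Igfbp2, 0.32 for Igfbp5 and -0.84 for Igfbp4. The means of Igfbp5 and Igfbp7 lay under 5 on both sides, so the signs of these differences are not read.

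Against fibroblasts by label, no member was called for iPS minus EF by limma, and 2.53% of all genes were called, 2.02% higher and 0.509% lower. The differences were 5.57 log2 units for Igfbpl1, -2.89 for Igfbp3, -2.67 for Igfbp7, -1.28 for Igfbp5, -1.26 for Igfbp6, -0.87 for Igfbp4 and -0.10 for Igfbp2. Without the arrays labelled DAC8 and REF2, with REF1 as the single culture and the same fit over arrays, 1 member was called higher and 4 lower, with 32.8% of all genes called, 16.5% higher and 16.3% lower. Igfbpl1 then stood at 9.64, Igfbp7 at -5.92, Igfbp3 at -5.82, Igfbp5 at -2.77, Igfbp6 at -1.81, Igfbp4 at -0.58 and Igfbp2 at -0.41. Both label comparisons use the same 4 iPS arrays.

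Set against single lines, the iPS mean had 1 member called higher and 1 lower against DAC2, Igfbpl1 and Igfbp2, where 29.8% of all genes were called. Against REF2 these were Igfbpl1 and Igfbp4, at 30.8% of all genes. Against REF1, Igfbpl1 was called higher and 4 members lower, at 32.7%, and against DAC8, Igfbpl1 was called higher and 5 members lower, at 31.8%. The 4 lower members, Igfbp3, Igfbp5, Igfbp6 and Igfbp7, were the same in both, and Igfbp2 was the fifth against DAC8 at -1.31 log2 units. All 4 comparisons use the same iPS arrays, and nothing is read from these counts.

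For ES minus EF, 0 of the 11001 genes were called by limma on line means and 0 with the line as a random block, and 25 had an unadjusted p under 0.05. Igfbp2 had 10.02 as the mean of the ES lines and 8.78 as that of the EF cultures, a difference of 1.24 log2 units, and the 6 other members lay between -0.55 and 0.11. With the DAC8 and REF2 arrays left out, so that DAC2 and REF1 were compared over arrays, 41.1% of all genes were called, 20.2% higher and 20.9% lower, and 1 member was called higher and 4 lower. Igfbpl1 stood at 7.55, Igfbp2 at 0.96, Igfbp4 at 0.27, Igfbp6 at -1.16, Igfbp5 at -3.09, Igfbp3 at -6.29 and Igfbp7 at -6.59. A fit over the means of the same 4 lines, with its spread from A1 and A2 alone, called 4453 genes for ES minus EF, 3246 for iPS minus ES and 3559 for iPS minus EF, against 4467, 3255 and 3568 over arrays.

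The partners of the binding proteins were taken from a list of 28 genes of the IGF axis, of which 24 had a probe set and 18 passed the filter. For DAC2 minus DAC8, 10 of the 18 fell and 2 rose, with 20.4% and 19.8% of all genes called in those directions and a list median of -1.49 log2 units against 0.18 over all genes. For REF1 minus REF2, 10 rose and 1 fell, with 19.6% and 20.7% of all genes called and a median of 1.58 against -0.15. For iPS minus REF1, 10 fell and 1 rose, with 16.4% of all genes called in each direction. Against DAC2, 6 fell and 5 rose in iPS, with 13.3% and 16.5%. For iPS minus DAC8, 9 fell and 1 rose, with 16.2% and 15.6%, and for iPS minus REF2, 6 fell and 4 rose, with 15% and 15.8%. For DAC2 minus REF2, 2 fell and 0 rose, where 2.95% and 1.05% of all genes were called. By limma 0 of 18 were called for A1 minus A2, with 4 at an unadjusted p under 0.05, and 0 for ES minus EF, with 0 at that p.

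Among the ligands, Igf2, the IGF of fetal growth, was high in the lines with high Igfbp3. Its log2 signal averaged 11.15 ± 0.02 in DAC8 and 12.61 ± 0.06 in REF1, and lay between 5.24 and 6.01 in the 4 other lines (SD, n = 2). It fell for DAC2 minus DAC8 by 5.18 on the log2 scale (SE 0.14, limma adjusted p = 9.77e-10) and was the single called gene of the list for DAC8 minus REF1 (-1.46 ± 0.14, SE, adjusted p = 0.000234), where 1.53% of all genes were called. The 3 other probe sets of Igf2 spanned at most 0.69 log2 units, and with the mean of all its probe sets the call for DAC8 minus REF1 was lost at -0.38. Igf1 averaged 7.54 in DAC8 and 7.88 in REF1 and lay under 5 in the other lines. It was 3.39 in DAC2 and 4.55 in REF2, and the call between these rests on levels under 5. Ins2 was under 5 throughout, and Ins1 had line means of 5.51 to 5.80 with no call in any comparison.

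Among the receptors, Igf1r, the signalling receptor of both IGFs, averaged 4.45 ± 0.18 in A1 and 4.69 ± 0.06 in A2, against 7.81 ± 0.04 in DAC2, 9.17 ± 0.05 in DAC8, 8.88 ± 0.01 in REF1 and 7.08 ± 0.05 in REF2 (log2 level, SD, n = 2 each). It fell in iPS against each of the 4 other lines, by 3.24 against DAC2 (SE 0.07, limma adjusted p = 2.86e-10) and by 2.51 against REF2 (SE 0.07, adjusted p = 1.40e-09), and both of its probe sets showed this order. Igf2r, which clears IGF2, also fell in iPS against all 4 lines, by 1.06 against DAC2 and by 2.90 against DAC8. Without the array of A1 replicate 1 its difference from DAC2 fell just short of the 2-fold limit. Insr, the insulin receptor, was high in iPS with 6.11 in A1 and 6.21 in A2, in DAC8 with 6.25 and in REF1 with 6.33, against 3.67 in DAC2 and 3.66 in REF2. It rose for iPS minus DAC2 by a fitted 2.49 (SE 0.18, limma adjusted p = 1.04e-06), and its dimmer probe set stayed under 5 in all lines. Tmem219, reported as a receptor for IGFBP3, was called in no comparison, with line means of 7.81 to 8.05.

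Grb10 and Grb14, adaptors that dampen signalling of the insulin and IGF1 receptors, were, like Insr, lowest in DAC2 and REF2. Grb10 averaged 6.65 ± 0.15 in A1 and 6.40 ± 0.19 in A2, against 3.42 ± 0.01 in DAC2, 11.16 ± 0.02 in DAC8, 11.32 ± 0.13 in REF1 and 3.32 ± 0.29 in REF2. The iPS lines thus lay between the other lines, with differences of 3.10 for iPS minus DAC2 (SE 0.12, limma adjusted p = 1.21e-08) and -4.79 for iPS minus REF1 (SE 0.12, adjusted p = 6.24e-10). Its 2 dimmer probe sets were under 5 in iPS, DAC2 and REF2, and with the mean of all 3 sets the difference for iPS minus DAC2 was 0.96 and the call was lost. Grb14 averaged 6.02 in A1 and 6.42 in A2, against 3.60 in DAC2, 7.36 in DAC8, 7.46 in REF1 and 3.93 in REF2. Irs2, a docking protein of these receptors, fell in iPS against each of the 4 other lines, by 1.11 against DAC2 and by 3.42 against REF1. Shc1, the adaptor towards the Ras pathway, had 8.08 in A1 and 7.97 in A2 and 10.17 to 10.82 in the other lines. It was the single gene of the list called by label, at -2.62 ± 0.28 for iPS minus EF (SE, limma adjusted p = 0.0297) and -2.38 ± 0.28 for iPS minus ES (adjusted p = 0.0386). Both calls were lost when any 1 line was left out, with an adjusted p of 0.0687 to 0.477 against EF and 0.0895 to 0.548 against ES. The differences then ranged from -2.80 to -2.45 against EF and from -2.60 to -2.15 against ES. The calls were also lost when the fit held only the 2 cell types (0.069 and 0.0898).

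Of the proteases and their inhibitors, Htra1, a secreted protease that can cleave IGFBP5, averaged 12.13 ± 0.01 in DAC8 and 12.12 ± 0.06 in REF1, against 6.62 ± 0.25 in A1, 6.01 ± 0.32 in A2, 4.04 ± 0.44 in DAC2 and 5.80 ± 0.14 in REF2. It fell for DAC2 minus REF2 by 1.76 (SE 0.21, limma adjusted p = 0.000214), where 2.95% of all genes were called lower. Stc1, a stanniocalcin, the family that blocks PAPPA proteases, was highest in REF1 at 6.50 and lay at 4.22 in DAC2 and 4.05 in REF2. Pappa2 and the acid-labile subunit gene Igfals, which holds IGFBP3 in the plasma complex, lay under 5 in all 6 line means of the probe sets that stood for them. The RNA-binding proteins Igf2bp1, Igf2bp2 and Igf2bp3, which share part of the name but bind IGF2 messenger RNA, were above 5 in all lines, and Igf2bp1 was higher in DAC2 than in DAC8 by 1.52 and lower in REF1 than in REF2 (-2.08).

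**Figure D4:**
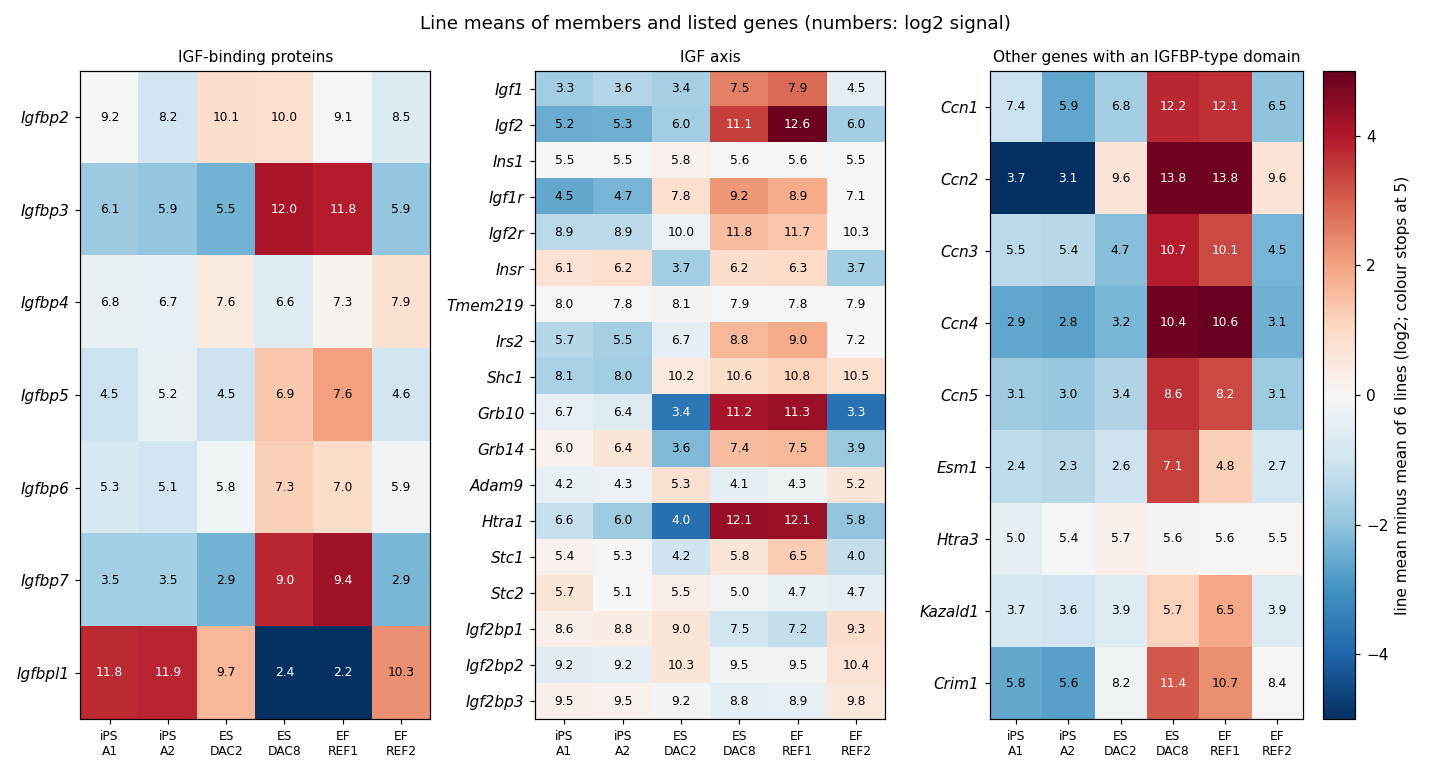
Line means of the members, the IGF axis genes and the other genes with an IGFBP-type domain that passed the filter. The number in each cell is the log2 signal, and colour is its difference from the gene's mean of 6 lines, with the scale ending at 5. DAC8 and REF1 share high cells for Igfbp3, Igfbp7, Igf2, Htra1 and Ccn1 to Ccn5, and the iPS lines A1 and A2 hold the lowest cells for Igf1r, Irs2, Shc1 and Ccn2.

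Other secreted or membrane proteins carry an N-terminal domain of the IGFBP type, among them the matricellular CCN proteins. Of 12 such genes listed, 11 had a probe set and 10 passed the filter, and Htra1 was also on the list of the IGF axis. For DAC2 minus DAC8, 9 of 10 fell and 0 rose, where 20.4% and 19.8% of all genes were called, with a median of -4.82 log2 units against 0.18 over all genes. For REF1 minus REF2, 9 rose and 0 fell, where 19.6% and 20.7% of all genes were called, with a median of 4.65 against -0.15. For iPS minus REF1, 9 fell and 0 rose, where 16.4% of all genes were called in each direction. Against DAC8, 9 fell and 0 rose in iPS, where 16.2% and 15.6% of all genes were called. For iPS minus DAC2, 2 fell and 1 rose, at 13.3% and 16.5% of all genes, and for iPS minus REF2, 2 fell and 0 rose, at 15% and 15.8%. By label, 0 of 10 were called by limma for iPS minus EF and 0 for iPS minus ES, with 2 at an unadjusted p under 0.05 in each.

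Ccn2, or connective tissue growth factor, had log2 levels of 3.66 in A1 and 3.13 in A2, 9.58 in DAC2 and 9.61 in REF2, and 13.78 in DAC8 and 13.80 in REF1. It fell for iPS minus DAC2 by 6.18 (SE 0.15, limma adjusted p = 4.45e-10), with the iPS lines under 5. Crim1, a membrane protein that binds bone morphogenetic proteins, also had its lowest means in iPS and its highest in DAC8 and REF1. It had 5.81 in A1 and 5.65 in A2, 8.16 in DAC2 and 8.43 in REF2, and 11.41 in DAC8 and 10.69 in REF1. Ccn1, a ligand of integrins, was the single gene of either list called between the iPS lines. It had 7.39 ± 0.03 in A1 and 5.88 ± 0.01 in A2 (SD, n = 2 each), a difference of 1.51 ± 0.09 (SE, limma adjusted p = 4.32e-05), where 0.136% of all genes were called higher. Esm1, or endocan, was the single gene of the list called for DAC8 minus REF1, with 7.07 ± 0.07 in DAC8 and 4.83 ± 0.01 in REF1, a difference of 2.24 ± 0.09 (SE, adjusted p = 3.19e-06). Ccn4 and Ccn5 lay under 5 in all lines but DAC8 and REF1, where Ccn4 had 10.38 and 10.57 and Ccn5 had 8.57 and 8.23.

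For the 5 members that spanned at least 2 log2 units, the genes with the most similar course over the 6 lines were looked up among the tested genes. The measure was the root mean square difference of line means after each gene was centred on its own mean of the 6 lines. For Igfbp3 these were Prss35 (0.124), Ltbp1 (0.176), which binds latent TGF-beta, and Srpx (0.182). For Igfbp7 they were the cadherin gene Fat4 (0.182), Enpp1 (0.194) and the myosin light chain gene Myl9 (0.231). For Igfbp5 they were Creb3l1 (0.175), Pcsk5 (0.183) and Lhx2 (0.223), and for Igfbp6 Zfhx3 (0.0977), Btbd10 (0.104) and Pter (0.116). For Igfbpl1 the nearest genes were farther away, with Cnpy1 at 0.625, Plekhh1 at 0.685 and Ankrd6 at 1.53 log2 units. Line means were centred but not scaled, so the measure also depends on span, 9.66 log2 units for Igfbpl1 and 2.19 for Igfbp6. Cnpy1 had 11.53 in A1 and 11.45 in A2, 10.68 in DAC2 and 11.06 in REF2, and 3.21 in DAC8 and 3.47 in REF1. All 6 means rest on 12 arrays of lines that fell into few profiles, so this likeness is a description.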

How the data were processed

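RNA from 6 rat lines was hybridised to 12 arrays of 31099 probe sets. The authors deposited log2 signals, for which the submitters' processing notes name RMA and Partek 6.2. RMA compresses differences of dim genes. The labels' protocols give amplification from about 100 ng of RNA. The sources do not say whether the arrays were normalized in 1 run. Values were used unchanged.

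The platform's gene table gave 1 symbol to 20832 probe sets, several to 436 and none to 9831, and 20764 matched a gene of GRCr8 by identifier. Genes whose highest line mean was under 5 were left out, leaving 11001 of 14218. Limma 3.58.1 (R 4.3.3) compared lines with 6 lines as the factor over 12 arrays, and cell types over 6 line means. P-values were adjusted over all tested genes by Benjamini-Hochberg. Both fits were run on simulated arrays, and limits on recovery and false calls were set for the fit between lines only. The number of arrays limits the precision.

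Members and lists were chosen with earlier results of these data known. Named genes were all members, measured genes of the lists, and the 3 genes nearest to each member of wide span. Marker lists also covered endoderm (1 to 3 of 6 at or above 5 per line), trophoblast (2 or 3 of 4), muscle (1 of 3) and endothelial genes (0 or 1 of 3). Alternatives were filters, scalings, an intensity trend, blocks, means of probe sets and arrays or lines left out. Both fits that leave out DAC8 and REF2, over arrays and over line means, were chosen after seeing the data. Plots were drawn with matplotlib 3.10.9.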

Additional observations from a re-analysis of the deposited data

Results flagged for a closer look

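In 2 of 102 groups of 4 arrays that share a cell type label, among the members and listed genes, 1 array lay far from the 3 others by Dixon's criterion at the 95% level. Chance flags about 1 in 20 groups of 4 independent samples, but each group here is 2 lines of 2 arrays, so that rate need not hold for it. Stc2 had a log2 signal of 4.59 on the array of REF2 replicate 2, and the 3 other EF arrays lay between 4.73 and 4.75. Esm1 had 2.47 on the array of A1 replicate 1, and the 3 other iPS arrays lay between 2.24 and 2.28. All of these levels are under 5, and no member of the family was among them.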

How the results depend on the processing

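Between lines, the counts of called genes stayed within 1.5 times under every alternative run, and with 1 array left out they ranged from 21 to 26 for A1 minus A2 and from 4415 to 4457 for DAC2 minus DAC8. By label they moved more. For iPS minus EF the 278 calls became 556 with the line as a random block (within-line correlation 0.965), 500 with the replicate block added to it, 92 with only the 2 cell types fitted, 3568 once the DAC8 and REF2 arrays were left out and the fit changed from line means to arrays, and 3559 once they were left out on line means. For iPS minus ES the 249 calls became 512, 469, 101, 3255 and 3246 under the same settings, and for ES minus EF the count of 0 became 4467 over arrays and 4453 on line means without those 2 lines. The line mean fit of 4 lines takes its spread from A1 and A2 alone. Leaving out 1 line gave 0 to 92 calls for iPS minus EF, 0 to 101 for iPS minus ES and 0 for ES minus EF, and leaving out 1 array gave 265 to 280, 236 to 252 and 0. Removing a line leaves 5 line means, and the lone line is then taken to vary like the others. Between lines the replicate block changed no count. Replicate numbers showed no pairing common to all lines: of 15 pairs of lines, 3 had deviations correlated over 0.1 (range -0.08 to 0.24). These were DAC2 with REF2 (0.24), A1 with A2 (0.18) and REF1 with REF2 (0.14). A batch shared by such lines was not tested. No listed gene or member that was called with all lines reversed. Listed genes and members not called there were not part of this check. For iPS minus ES without DAC8 and REF2, Grb10 went from -0.77 to 3.10 and Htra1 from -1.77 to 2.28. Other genes, such as Igf1r at -3.92 and then -3.24, kept their sign. Of the calls of listed genes, 2046 checks kept the call status and 24 lost the call in the same direction, 14 of them for Shc1. Stc1 lost its call against REF1 and DAC2, Grb10 (0.96) and Igf2bp2 (-0.97) theirs against DAC2, and Igf1 its calls of iPS and of DAC2 against REF2 with the mean of all probe sets. Stc1 against DAC2 (0.82) and Igf1 for DAC2 minus REF2 (-0.96) also lost the call without 1 DAC2 array. Of the member differences, 28 moved by more than a set spread, 12 of them for ES minus EF without DAC8 and REF2. Between lines this spread was the SD of replicates, and between cell types the far wider SD of a label's line means. Igfbpl1 for iPS minus EF (5.57 to 9.64) and Igfbp3 for iPS minus ES (-2.75 to 0.47) therefore did not count as moved without those arrays. Signals under 5 limit what can be said of Igfbp1 in any line.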
